A study of Mus musculus with 23 samples.

Results

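The matrix metalloproteinases (MMPs), the ADAMTS proteases (a disintegrin and metalloproteinase with thrombospondin motifs) and the tissue inhibitors of metalloproteinases (TIMPs) were followed in bulk RNA sequencing of mouse lung. Members were chosen by name alone, as every gene of the deposited tables whose symbol is Mmp, Adamts or Timp followed by its family number. This gave 46 of 24411 genes, made up of 23 Mmp, 19 Adamts and 4 Timp genes. The series compared wild-type (WT) mice with mice lacking Rarres1 (KO), a gene for a membrane protein induced by retinoic acid, all C57BL/6 and untreated, in a pathogen-free barrier facility. Lungs were taken at embryonic day 19.5 (E19.5, sex not given) and from males at 10 and 18 months. The groups were 3 WT and 3 KO lungs at E19.5, 3 WT and 3 KO lungs at 10 months, 3 WT lungs and 5 KO non-tumour lungs at 18 months, and 3 lung tumours of 18-month KO males. Tumours 1, 3 and 6 carry the same code numbers as KO non-tumour lungs 1, 3 and 6, which are read here as the same animals. The titles number non-tumour lungs 6 and 7 as 4 and 5, so the pairing of lung 6 with tumour 6 rests on the code alone. Beyond this the titles number the samples of each group as embryos or as males, which are read here as separate animals. No label states this outright, so the p-values rest on sample-to-sample spread that may be technical.

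MMPs are zinc enzymes that cleave collagens, elastin, fibronectin and many cell surface and signalling proteins, and most are made as inactive proenzymes. ADAMTS proteases are secreted relatives that trim procollagens, cleave the large proteoglycans versican and aggrecan, or act on the fibrillin microfibrils around elastic fibres, while TIMPs bind the active site of these enzymes and block it. In the lung these proteins take part in the shaping of alveoli, and macrophage elastase (MMP12) and gelatinase B (MMP9) are known from emphysema and inflammation.

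A cluster of 10 Mmp genes lies on chromosome 9, between positions 7272514 and 7699585 of build GRCm38 (427 kb), in the order Mmp13, Mmp12, Mmp1b, Mmp3, Mmp1a, Mmp10, Mmp8, Mmp27, Mmp20 and Mmp7. The 250 bases upstream of the RNA start of 5 of them are printed from RefSeq's promoter table (GRCm38.p6, plus strand, 5′ to 3′), because Mmp13, Mmp12, Mmp3 and Mmp10 differed widely in level among the groups, while their neighbour Mmp8 stayed between group means of 2.15 and 3.94 FPKM. Capitals mark TGAGTCA or TGACTCA, the letters that AP-1 (dimers of Fos and Jun proteins) is known to bind. For Mmp12 the window of the transcript named in the deposited table is shown. RefSeq also lists an earlier Mmp12 start, whose window (chr9:7344147-7344396) holds no match. The starts used for Mmp10 and Mmp8 are not those of the deposited transcripts in GENCODE M21.
Mmp13 (chr9:7272264-7272513): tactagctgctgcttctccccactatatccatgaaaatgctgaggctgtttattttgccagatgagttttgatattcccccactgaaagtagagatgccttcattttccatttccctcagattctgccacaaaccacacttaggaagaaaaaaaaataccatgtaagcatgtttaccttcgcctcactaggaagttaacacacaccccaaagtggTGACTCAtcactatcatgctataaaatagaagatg
Mmp12 (chr9:7347124-7347373): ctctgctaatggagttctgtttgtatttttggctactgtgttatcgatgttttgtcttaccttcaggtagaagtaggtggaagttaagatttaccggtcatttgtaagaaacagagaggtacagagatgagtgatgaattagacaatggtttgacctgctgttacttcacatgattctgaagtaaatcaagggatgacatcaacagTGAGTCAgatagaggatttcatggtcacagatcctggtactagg
Mmp3 (chr9:7445572-7445821): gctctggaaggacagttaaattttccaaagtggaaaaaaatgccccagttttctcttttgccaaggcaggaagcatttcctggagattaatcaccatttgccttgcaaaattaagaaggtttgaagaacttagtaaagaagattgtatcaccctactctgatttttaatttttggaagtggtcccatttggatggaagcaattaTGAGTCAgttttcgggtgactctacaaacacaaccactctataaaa
Mmp10 (chr9:7502092-7502341): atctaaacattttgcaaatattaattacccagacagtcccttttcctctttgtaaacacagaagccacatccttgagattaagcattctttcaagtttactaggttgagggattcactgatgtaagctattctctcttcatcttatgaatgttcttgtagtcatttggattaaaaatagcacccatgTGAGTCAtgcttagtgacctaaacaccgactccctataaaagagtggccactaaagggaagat
Mmp8 (chr9:7558179-7558428): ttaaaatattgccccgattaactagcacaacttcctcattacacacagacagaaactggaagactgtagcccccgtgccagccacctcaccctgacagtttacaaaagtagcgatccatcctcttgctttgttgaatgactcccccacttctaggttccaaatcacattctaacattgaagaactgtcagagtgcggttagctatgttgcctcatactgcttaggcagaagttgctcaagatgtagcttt
The first base of the match lies at -35 in Mmp13, -44 in Mmp12, -46 in Mmp3 and -63 in Mmp10, counted back from the RNA start, and the Mmp8 window holds none. Over all upstream windows of 250 bases, 4.46% (1466 of 32851) hold the pattern on either strand. It was found in 7 of the 10 cluster genes and in 0 of the 22 other members with a window. Besides printed genes, these 7 included Mmp1a and Mmp1b, with 0 reads in all 23 libraries, and Mmp7, with 4 reads in all. Mmp27 and Mmp20 held no match, and the group means of Mmp27 ran from 0.0267 to 0.243 FPKM. Mmp10 reached a group mean of 0.147 FPKM at most. The AP-1 pattern was 1 of 3 patterns searched on both strands. TATAAA or TTTATA was found in 7 of 10 cluster genes, 2 of 22 other members and 12.4% of all windows. AGGAAG or CTTCCT, as in sites of ETS factors, was found in 6 of 10, 7 of 22 and 29.5%. The pattern in capitals and the 5 windows were chosen after the matches and the expression values had been seen. A match is a run of letters and does not show binding, and the cluster genes are related copies.

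The libraries held 23661181 to 46566642 counts each, of which the 46 members took 0.196% to 0.372%. WT libraries held 24 to 64 Rarres1 reads each, and KO lungs and tumours 0 or 1. WT embryo 3 stood apart: the mean log2(CPM + 1) of 10 basal and squamous epithelium markers was 5.27 in it, against 0.99 to 1.27 in the other 5 embryos, and that of 11 skeletal muscle markers was 4.28, against 1.65 to 3.06. (CPM are counts scaled to library size with TMM factors.) No marker of alveolar type 1, alveolar type 2, club or ciliated cells was at 0 reads in an adult group. In the tumours 7 of 9 alveolar type 2 markers were called higher than in KO non-tumour lung, while 9 of 9 ciliated, 4 of 7 club, 4 of 9 smooth muscle and 3 of 7 mesothelial markers were called lower. In whole tissue, fewer cells of a type and less RNA per cell cannot be told apart.

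The members spanned a wide range of levels. Per length, in FPKM (fragments scaled by transcript length and library size), 4 members reached a group mean of 100 or more, 19 reached 10, 32 reached 1 and 41 reached 0.1. Mmp1a, Mmp1b and Mmp20 (the enamel protease) had 0 reads in all 23 libraries. Over their summed depth, a count of 0 allows up to 0.0046 CPM, covering counting error only. The highest group mean was at E19.5 for 21 members (9 in WT, 12 in KO), in the tumours for 8, and in another adult group for 14.

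Timp3 had the highest mean level of the members in WT embryos and in WT lung at 10 months, and Timp2 came next in the adult lung but below Mmp14 and Mmp2 in embryos. Timp3, which stays bound to the matrix and blocks several ADAMTS enzymes, was at 243 ± 7.50 FPKM (SD, n = 3) in WT embryos and 250.4 ± 35.2 FPKM (n = 3) in WT lung at 10 months. Timp2, which besides inhibiting MMPs helps MMP14 to activate pro-MMP2, was at 71 ± 5.54 FPKM in WT embryos and 222 ± 8.43 FPKM in WT lung at 10 months. Timp1 and Timp4 were far below both, with levels of 8.75 ± 1.79 and 3.09 ± 0.662 FPKM in WT lung at 10 months. Among the proteases of WT embryos, Mmp14, the membrane-bound activator of pro-MMP2, was at 121 ± 3.55 FPKM and Mmp2, gelatinase A, at 101 ± 3.22 FPKM. The sum of the 4 TIMP levels over the sum of the 42 protease levels, in FPKM, was 0.553 ± 0.0227 (SD, n = 3) in WT embryos and 1.63 ± 0.103 (n = 3) in WT lung at 10 months. It ran from 0.536 to 0.579 in the embryos and from 1.52 to 1.72 in the adults, without overlap. It is a ratio of transcripts, not of active protein.

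**Figure D1:**
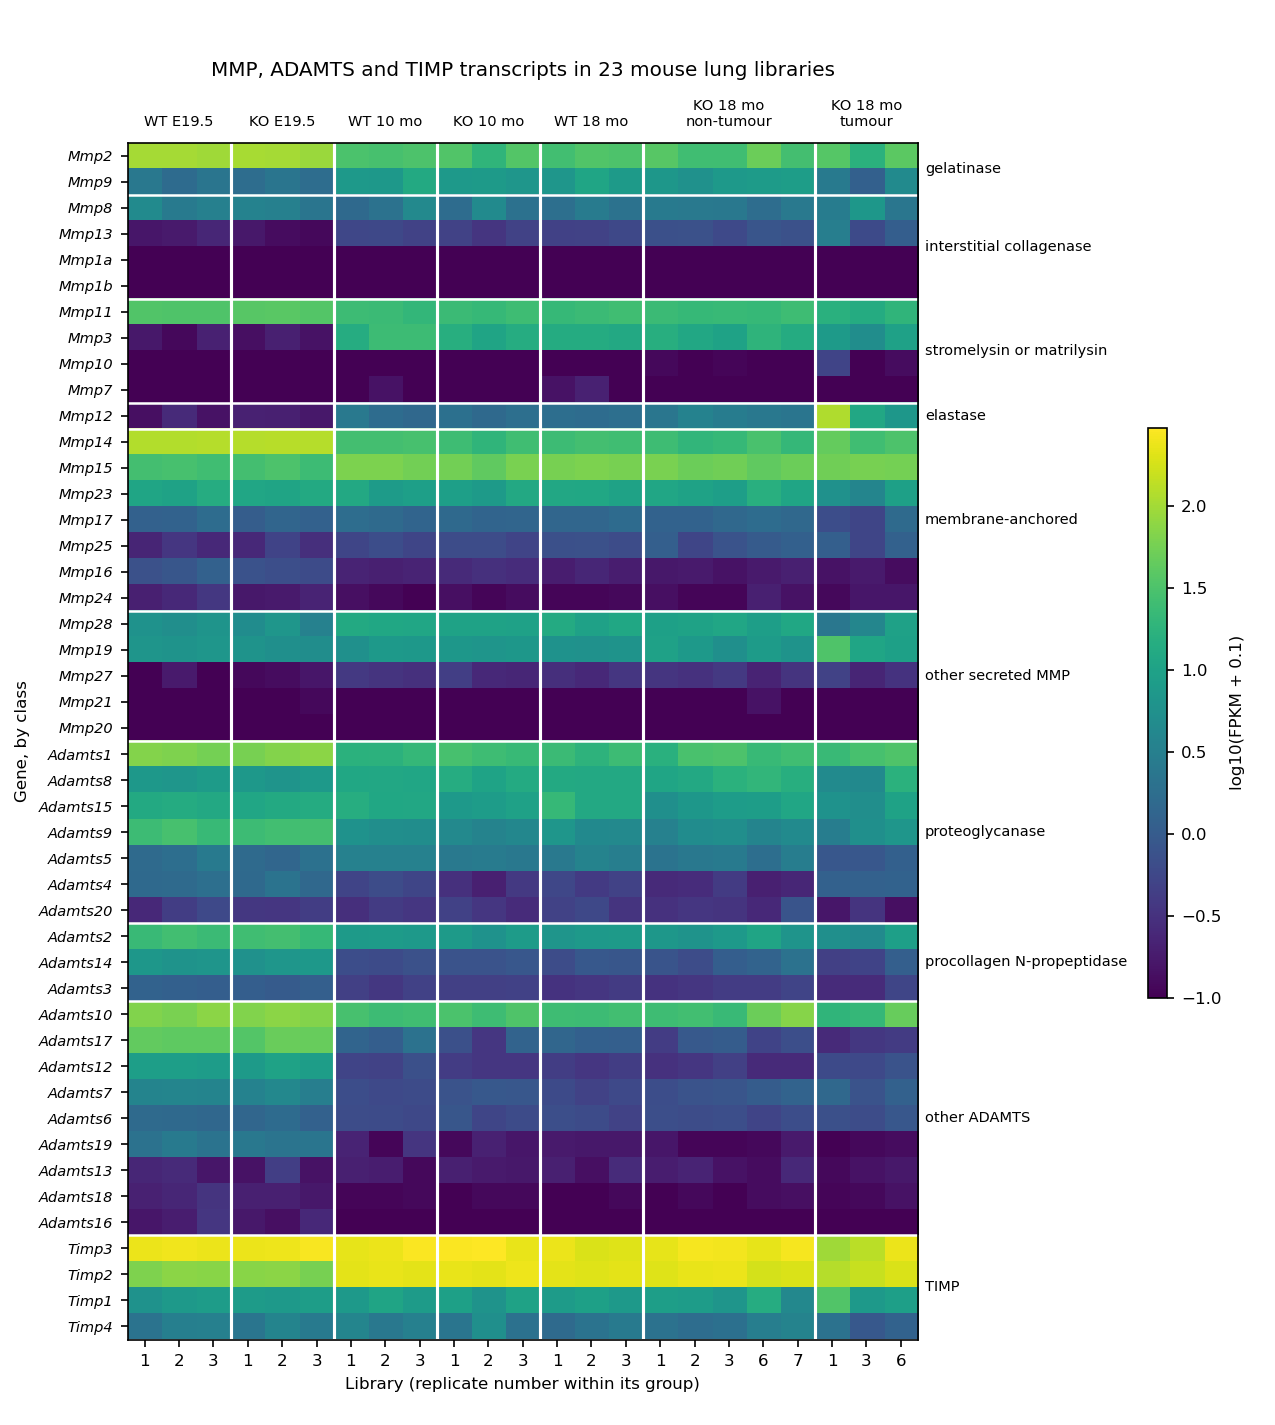
Heat map of log10(FPKM + 0.1) for the 46 members (rows, grouped by class) in the 23 libraries (columns, by group and replicate). Timp3 and Timp2 are high in every library, many ADAMTS genes are highest in the 6 embryonic lungs, and Mmp12 reaches 118 FPKM in tumour 1.

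The first comparison asked how KO and WT lungs differed before birth. At E19.5 edgeR's quasi-likelihood test called 0 of 36 members (adjusted p under 0.05), beside 0% of all genes tested, and DESeq2 and limma called 0. An unadjusted p under 0.05 was reached by 1 member, Mmp11 (stromelysin 3), and by 0.941% of all genes. Mmp11 stood at 68.6, 62.8 and 65.4 CPM in WT and 74.0, 74.8 and 72.5 CPM in KO embryos, without overlap (log2 difference 0.17 ± 0.067, SE; edgeR adjusted p = 0.99992). The median log2 difference of the 36 members was 0.0061, beside 0.0027 over all genes. Mmp14 stood at 281, 268 and 289 CPM in WT and 281, 299 and 299 CPM in KO embryos, Timp2 at 219, 246 and 237 CPM and 242, 248 and 202 CPM, and the genotypes overlapped for both. Adamts5, an aggrecanase, was highest in WT embryo 3 (11.5, 12.7 and 19.6 CPM in WT, 11.3, 10.1 and 14.8 CPM in KO), the embryo with high squamous and muscle markers. Their part in that value was not tested.

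At 10 months the called members were both proteoglycan-cleaving ADAMTS genes, and both were lower in KO lung. Of 35 members tested, 0 were called higher and 2 lower (5.71%), beside 1.52% of all genes tested (0.574% higher, 0.946% lower). Adamts15, which cleaves versican and aggrecan (chromosome 9, 30899155 to 30922452), stood at 82.3, 69.6 and 70.1 CPM in WT and 42.4, 49.2 and 55.5 CPM in KO lungs. Every KO lung was below every WT lung, 1.51-fold on average (log2 -0.60 ± 0.11, edgeR adjusted p = 0.0394). Adamts9, which cleaves versican (chromosome 6, 92772699 to 92944450), stood at 33.9, 31.1 and 29.5 CPM in WT and 25.0, 20.6 and 23.4 CPM in KO lungs. Again no KO lung reached a WT lung, and the mean was 1.37-fold lower (log2 -0.46 ± 0.088, edgeR adjusted p = 0.0408). Adamts9 shares 1381 exonic bases with the antisense gene A730049H05Rik, and whether counting used strand is not stated in the sources used here. The same lungs also differed in tissue markers. The mean log2(CPM + 1) of 12 fibroblast markers ran from 6.883 to 7.051 in WT and from 6.573 to 6.875 in KO lungs. Pdgfra was called lower, and 0 of 12 had a log2 difference above 0. For 9 smooth muscle markers the level ran from 6.23 to 6.51 and from 6.06 to 6.14, with 0 called and 0 above 0. Of 7 mesothelial markers, 7 were above 0 and 0 were called. The part of tissue composition in the 2 calls was not tested.

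Both calls stood close to the threshold. Adamts15 kept its call in 4 of 14 alternatives and Adamts9 in 3 of 14, with the same sign in all. Leaving out KO lung 3 kept the call of Adamts15 (edgeR adjusted p = 0.0299), and leaving out any other of the 6 lungs ended it (adjusted p = 0.0721 to 0.138). Leaving out any 1 of the 6 lungs ended the call of Adamts9 (adjusted p = 0.0716 to 0.111).

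The other proteoglycanases were not called at 10 months by edgeR. Adamts5 stood at 25.7, 26.9 and 25.9 CPM in WT and 19.5, 21.8 and 18.5 CPM in KO lungs, without overlap (log2 -0.40 ± 0.081, adjusted p = 0.0508), and Adamts4, the other main aggrecanase, at 1.42, 1.93 and 1.51 CPM and 0.688, 0.342 and 0.984 CPM, also without overlap (-1.26 ± 0.35, adjusted p = 0.121). Adamts5 was called without KO lung 2 (edgeR adjusted p = 0.0221) and with no filter on low counts (0.0443). Adamts1, which also cleaves both proteoglycans and was picked after its values were seen, had the opposite sign (0.49 ± 0.13, adjusted p = 0.123). Adamts8 and Adamts20 also had a higher mean in KO than in WT lung. Adamts8 was at 12.6 ± 2.05 against 11.7 ± 0.248 FPKM, and Adamts20 at 0.263 ± 0.101 against 0.247 ± 0.0551 FPKM. DESeq2 called 5 members, Adamts1 higher and Adamts15, Adamts9, Adamts5 and Mmp3 lower, and limma called 0. The median log2 difference was -0.40 over the 7 proteoglycanases and -0.05 over all 35 members, beside -0.00031 over all genes. An unadjusted p under 0.05 was reached by 11 of 35 members and by 17.4% of all genes. None of the 4 TIMPs was called. Timp3 stood at 989, 1095 and 1308 CPM in WT and 1289, 1384 and 1051 CPM in KO lungs, and these overlapped.

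At 18 months KO non-tumour lung was compared with WT lung, in other animals than at 10 months. edgeR called 0 of 35 members, beside 0.0776% of all genes, and 7 members had an unadjusted p under 0.05 (8.04% of all genes did). DESeq2 called 1, Adamts15 (-0.99 ± 0.25, adjusted p = 0.0100), and limma 0. Adamts15 stood at 127, 70.9 and 71.7 CPM in WT lungs 1 to 3, and at 31.4, 40.1, 47.5, 47.0 and 61.0 CPM in KO non-tumour lungs 1, 2, 3, 6 and 7. Every KO lung was below every WT lung, and WT lung 1 was far above the other WT lungs (log2 -0.99 ± 0.23, edgeR adjusted p = 0.229).

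Adamts9 overlapped between the genotypes at 18 months, with 39.9, 25.3 and 24.9 CPM in WT and 19.6 to 30.5 CPM (median 24.9) in KO (-0.29 ± 0.20, edgeR adjusted p = 0.765). Adamts4 stood at 1.61, 1.02 and 1.38 CPM in WT and 0.330 to 1.06 CPM (median 0.573) in KO (-1.09 ± 0.36, adjusted p = 0.435), with some overlap. Adamts17, which acts on fibrillin microfibrils, stood at 7.80, 6.15 and 6.02 CPM in WT and 1.86 to 5.43 CPM (median 3.22) in KO, without overlap (-0.90 ± 0.33, adjusted p = 0.498). On the other side was Adamts7, which cleaves the cartilage protein COMP. At 18 months it stood at 2.69, 1.96 and 2.55 CPM in WT and 2.97 to 5.70 CPM (median 3.78) in KO (0.76 ± 0.25, adjusted p = 0.410), and at 10 months at 2.84, 2.57 and 2.70 CPM in WT and 3.47, 4.30 and 4.04 CPM in KO (0.54 ± 0.16, adjusted p = 0.133). At 10 and at 18 months its KO values lay above its WT values, and at neither age was it called. At E19.5 its values overlapped between the genotypes. The share of all genes whose genotypes lay apart in this way is not given here.

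Mmp12 also lay higher in the 5 KO non-tumour lungs (7.67, 11.8, 9.55, 7.87 and 6.92 CPM) than in the WT lungs (5.98, 5.46 and 5.98 CPM) without overlap, and was not called (0.58 ± 0.19, edgeR adjusted p = 0.410). The mean log2(CPM + 1) of 12 alveolar macrophage markers ran from 5.57 to 6.37 in these KO lungs and from 5.58 to 5.80 in WT, with 0 of 12 called and none at 0 reads. Their part was not tested.

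Whether the genotype effect differed between ages was tested as an interaction. edgeR called 0 of 39 members for 10 months against E19.5, beside 0.156% of all genes. There 7 members had an unadjusted p under 0.05, as did 7.60% of all genes. For 18 against 10 months edgeR called 0 of 37, beside 0% of all genes, and 4 members had an unadjusted p under 0.05 (2.89% of all genes did). DESeq2 and limma called 0 in both tests. No difference between ages was shown for Adamts15 or Adamts9.

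**Figure D2:**
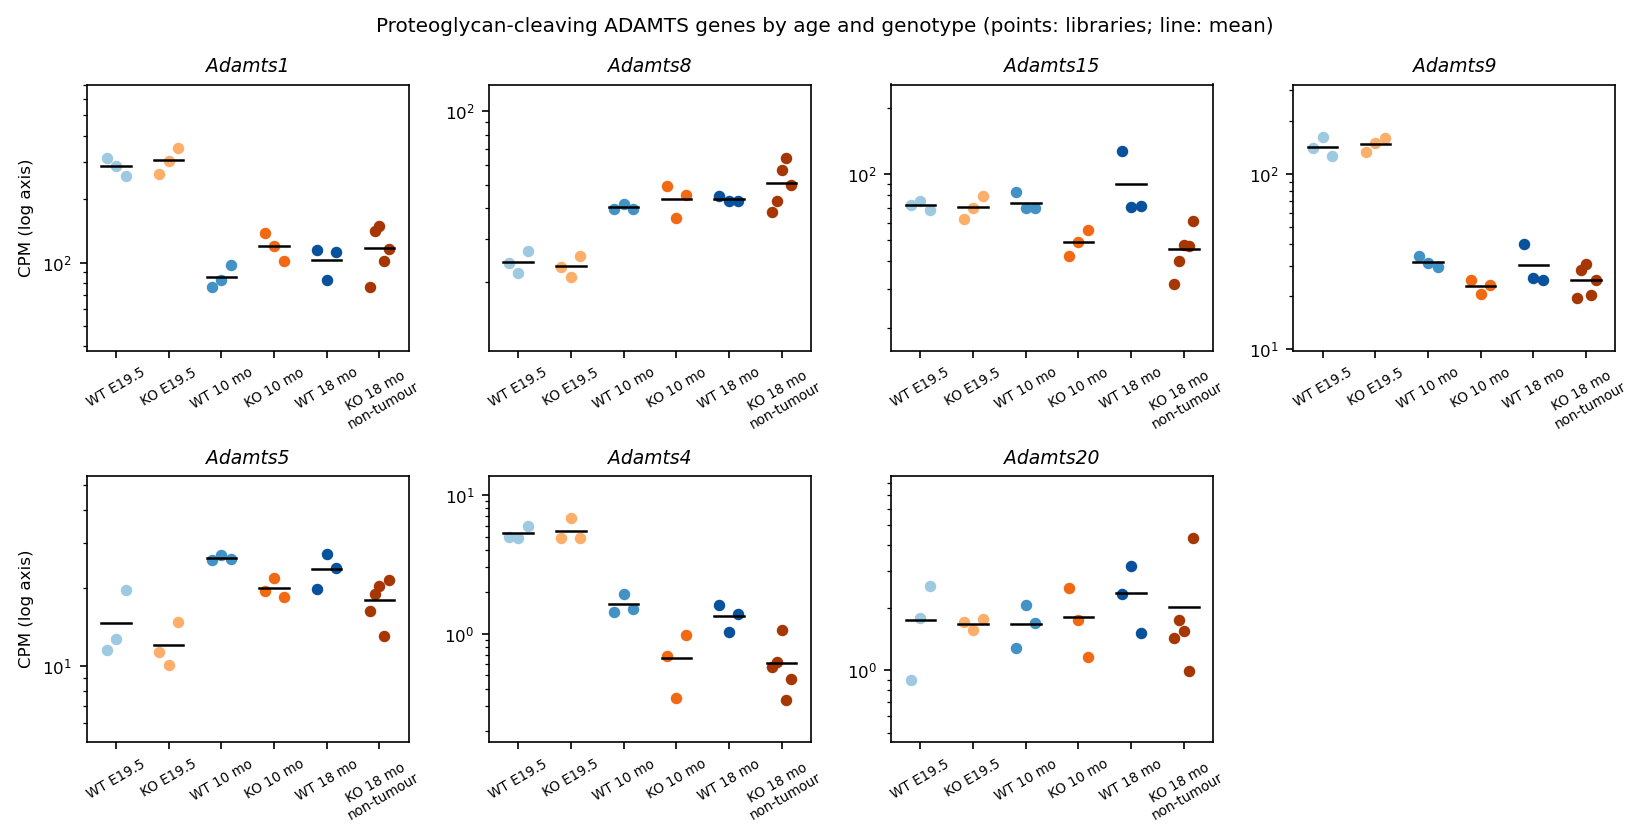
CPM (log axis) of the 7 proteoglycan-cleaving ADAMTS genes by age and genotype in the non-tumour lungs; each point is a library. For Adamts15 all KO lungs lie below all WT lungs at 10 months (42.4 to 55.5 against 69.6 to 82.3 CPM) and at 18 months, and for Adamts9 they do so at 10 months only.

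The comparison of E19.5 with 10 months gave the most calls, in both genotypes. In WT lung 10 members were higher and 18 lower at 10 months, of 37 tested, beside 62.8% of all genes called (31.6% higher, 31.2% lower). In KO lung 11 were higher and 17 lower, of 35 tested, beside 60.5% of all genes (31.1% higher, 29.4% lower). The 26 members called in both genotypes (92.9% of each list) had the same direction in each, 10 higher and 16 lower. A member nearly unread in embryos or in adults could pass the low-count filter through the other age alone. Its direction was then set by the filter. The embryos' sex is not given and the adults were male, so age and sex cannot be told apart.

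ADAMTS genes were mostly lower in the adult. Of 17 tested in WT, 13 fell and 2 rose (median log2 difference -1.71), and of 16 tested in KO, 13 fell and 2 rose (median -1.60), beside all-gene medians of -0.00027 and 0.0030. These counts include members that passed the low-count filter through the embryos alone. Adamts18 had 14, 17 and 25 reads in WT embryos and 1, 1 and 2 reads at 10 months. Adamts19 had 3, 13 and 7 reads in KO lung at 10 months. Adamts17 fell from 252, 228 and 231 CPM in WT embryos to 7.11, 5.92 and 11.3 CPM at 10 months (log2 difference -4.88 ± 0.25, 29.4-fold, edgeR adjusted p = 1.47e-05). In KO it fell from 201, 268 and 273 CPM to 3.57, 1.52 and 6.89 CPM (-5.94 ± 0.52, 61.2-fold, adjusted p = 0.000317). No adult lung came near any embryo.

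Adamts12, a relative of Adamts7, fell from 52.3, 50.0 and 49.1 CPM to 2.50, 2.40 and 3.74 CPM in WT (-4.14 ± 0.15) and from 45.5, 58.7 and 52.0 CPM to 1.94, 1.60 and 1.51 CPM in KO (-4.94 ± 0.15). Adamts19, the close relative of Adamts17, fell from 8.49, 10.9 and 8.79 CPM to 0.541, 0.0677 and 1.08 CPM in WT (-4.07 ± 0.64) and from 10.2, 9.0 and 9.71 CPM to 0.0939, 0.495 and 0.246 CPM in KO (-5.14 ± 0.36). For both, embryos and adults were far apart. Adamts14, a procollagen N-propeptidase, fell from 33.9, 28.3 and 31.0 CPM to 2.81, 2.67 and 3.23 CPM in WT (-3.43 ± 0.12) and from 27.6, 31.5 and 35.5 CPM to 3.35, 3.46 and 3.87 CPM in KO (-3.14 ± 0.13). All 3 procollagen N-propeptidases fell in both genotypes. The tested ADAMTS members outside the proteoglycanases and propeptidases fell too, 7 of 7 in WT and 6 of 6 in KO. Among them, Adamts18 in WT and Adamts19 in KO passed the low-count filter through the embryos alone, so their direction was set by it.

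Adamts7 fell from 18.2, 18.3 and 18.0 CPM to 2.84, 2.57 and 2.70 CPM in WT (-2.75 ± 0.11) and from 16.9, 20.7 and 15.4 CPM to 3.47, 4.30 and 4.04 CPM in KO (-2.16 ± 0.15). Adamts4 fell from 4.92, 4.90 and 6.00 CPM to 1.42, 1.93 and 1.51 CPM in WT (-1.71 ± 0.20) and from 4.85, 6.83 and 4.87 CPM to 0.688, 0.342 and 0.984 CPM in KO (-3.01 ± 0.34). The proteoglycanases were split, since Adamts5 and Adamts8 rose in both genotypes (0.84 ± 0.19 and 0.73 ± 0.089 in WT). Adamts9 fell from 140.0, 161 and 126 CPM to 33.9, 31.1 and 29.5 CPM in WT (-2.18 ± 0.10) and from 134, 149 and 159 CPM to 25.0, 20.6 and 23.4 CPM in KO (-2.67 ± 0.10). Adamts15 fell in KO (-0.52 ± 0.12, edgeR adjusted p = 0.00553; 0.0678 in a fit over all 23 libraries) and had a log2 difference of 0.03 ± 0.080 in WT, which was not called.

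The same pairs of groups differed in other markers. Mitosis markers were called lower in 12 of 12 and chondrocyte markers in 8 of 8 tested in both genotypes. Of 12 fibroblast markers 7 were called lower in each, with 4 higher in WT and 3 in KO. Of all genes, 31.6% were called higher and 31.2% lower in WT, and 31.1% and 29.4% in KO. The mean log2(CPM + 1) of the fibroblast list ran from 7.72 to 8.21 in WT embryos and from 6.88 to 7.05 in WT lung at 10 months. Their part in the falls of the ADAMTS genes was not tested.

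The members that rose in both genotypes were led by Mmp3 and Mmp12 of the chromosome 9 cluster. Mmp3 (stromelysin 1) rose from 0.104, 0.0371 and 0.162 CPM in WT embryos to 22.9, 39.1 and 38.9 CPM at 10 months (log2 8.33 ± 0.40, 322-fold, edgeR adjusted p = 3.38e-06). In KO it rose from 0.0670, 0.153 and 0.0806 CPM to 24.2, 17.3 and 22.8 CPM (7.70 ± 0.27, 209-fold, adjusted p = 3.62e-07). The gene was nearly silent in every embryo and clearly expressed in every adult lung. Without WT lung 1 at 10 months, Mmp3 was called lower in KO than in WT lung (log2 -0.86, edgeR adjusted p = 0.0463), and with all 6 lungs it was not (-0.65 ± 0.25, adjusted p = 0.268).

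Mmp12 rose from 0.139, 0.519 and 0.162 CPM to 8.43, 5.48 and 4.78 CPM in WT (4.48 ± 0.45) and from 0.368, 0.343 and 0.242 CPM to 6.32, 4.98 and 5.94 CPM in KO (4.15 ± 0.25). Mmp9, gelatinase B of neutrophils and macrophages, rose from 7.0, 4.30 and 6.12 CPM to 21.4, 21.8 and 39.1 CPM in WT (2.23 ± 0.32) and from 4.69, 6.10 and 4.91 CPM to 22.2, 23.5 and 19.8 CPM in KO (2.07 ± 0.13). No embryo reached an adult lung for either gene. Of 12 alveolar macrophage markers, 10 were called higher at 10 months in each genotype, and their mean log2(CPM + 1) ran from 3.33 to 3.87 in WT embryos and from 5.51 to 5.87 at 10 months. Of 9 neutrophil markers tested, 3 were called higher and 2 lower in WT and 5 higher and 0 lower in KO, with Elane at 0 reads in WT lung at 10 months. Of all genes, 31.6% were called higher and 31.2% lower in WT, and 31.1% and 29.4% in KO. The part of macrophages and neutrophils in the rises was not tested.

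Timp2 rose from 219, 246 and 237 CPM to 745, 808 and 742 CPM in WT (1.70 ± 0.075, 3.25-fold) and from 242, 248 and 202 CPM to 803, 759 and 841 CPM in KO (1.80 ± 0.10, 3.48-fold). The other inhibitors were not called: the log2 difference in WT and KO was 0.35 ± 0.20 and 0.13 ± 0.20 for Timp1, 0.10 ± 0.10 and 0.16 ± 0.14 for Timp3, and 0.21 ± 0.24 and 0.21 ± 0.42 for Timp4. Mmp14 and Mmp2, which work together with TIMP2, went the other way. Mmp14 fell from 281, 268 and 289 CPM to 66.0, 66.4 and 70.5 CPM in WT (-2.05 ± 0.066) and from 281, 299 and 299 CPM to 60.2, 46.3 and 61.7 CPM in KO (-2.38 ± 0.12). Mmp2 fell from 287, 276 and 267 CPM to 86.9, 84.8 and 91.9 CPM in WT (-1.66 ± 0.064) and from 288, 281 and 261 CPM to 97.8, 54.3 and 102 CPM in KO (-1.70 ± 0.23). For these 3 genes embryos and adults did not overlap in either genotype.

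Mmp15, another transmembrane MMP, rose from 109.8, 112 and 102 CPM to 254, 256 and 226 CPM in WT (1.18 ± 0.074) and from 107, 127 and 97.4 CPM to 225, 177 and 241 CPM in KO (0.97 ± 0.14). Mmp28 (epilysin) rose from 11.9, 10.3 and 12.4 CPM to 27.1, 25.1 and 23.8 CPM in WT (1.13 ± 0.10) and from 9.67, 13.5 and 6.89 CPM to 21.0, 21.3 and 20.2 CPM in KO (1.06 ± 0.22). Mmp28 shares 466 exonic bases with 1700020L24Rik on the other strand, which rose as well (1.11 ± 0.15 in WT), and reads of the pair may not be told apart. Called in 1 genotype alone were Adamts18 and Mmp24 (lower in WT, not tested in KO), Adamts15 (lower in KO) and Mmp19 (higher in KO, not called in a fit over all 23 libraries). The interaction test called none of them, so a difference between genotypes was not shown.

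**Figure D3:**
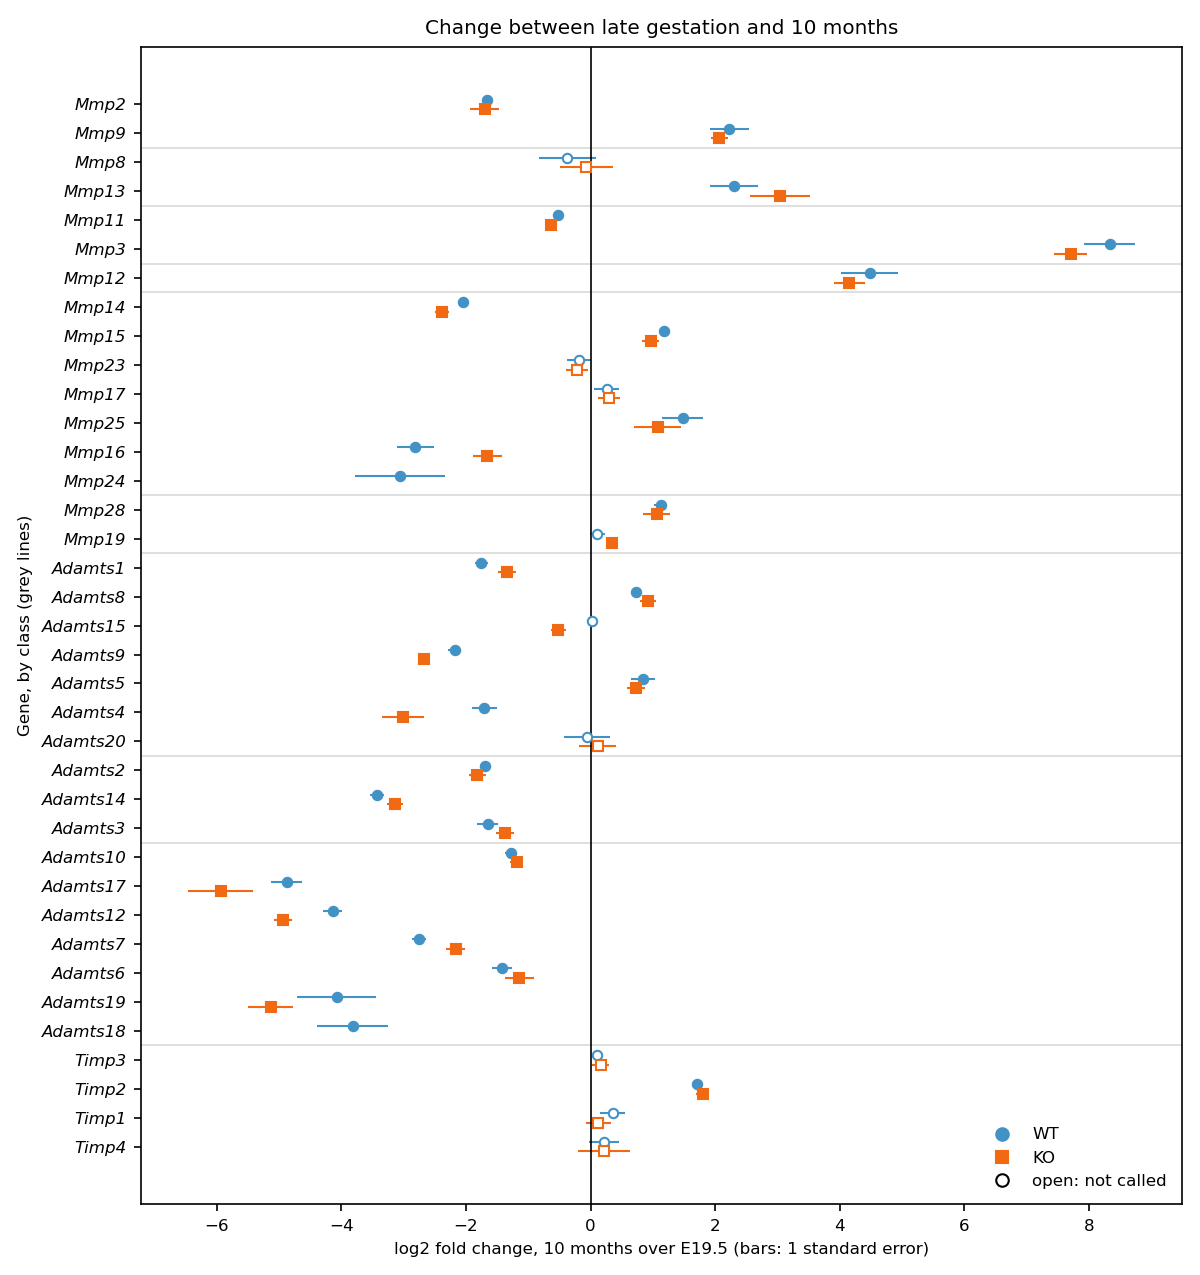
Log2 fold change from E19.5 to 10 months for each member tested (WT circles, KO squares, bars of 1 standard error, open symbols not called by edgeR). Mmp3 (8.33 ± 0.40 in WT) and Mmp12 lie far to the right and Adamts17 (-4.88 ± 0.25 in WT) far to the left, with both genotypes on the same side of 0.

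Among 48 genes listed by role as regulators, relatives and substrates of these enzymes, 47 were in the table and 44 were tested from E19.5 to 10 months. In WT 16 were called higher and 21 lower (median -0.38), and in KO 15 and 21 (median -0.27), beside 62.8% of all genes called in WT and 60.5% in KO. Fibronectin (Fn1), an MMP substrate, fell in WT (log2 -3.19 ± 0.13) and in KO (-3.29 ± 0.16), and elastin (Eln) fell in KO (-6.49 ± 0.20). Hapln1, the link protein that ties aggrecan and versican to hyaluronan and is 1 of the chondrocyte markers, fell in KO (-6.63 ± 0.23). Col4a1, a basement membrane collagen, fell in WT (-2.31 ± 0.10), and Adamtsl2, an ADAMTS-like microfibril protein without protease activity, did so too (-2.18 ± 0.071). The collagen-cleaving cathepsin K gene (Ctsk) rose by 3.06 ± 0.11 in KO, and the cathepsin inhibitor Cst3 by 1.61 ± 0.075 in WT. In KO against WT lung 1 of 41 listed genes was called at 10 months, beside 1.52% of all genes (0.946% lower). It was the sheddase Adam17 (-0.34 ± 0.064, edgeR adjusted p = 0.0407). At E19.5 0 of 44 were called and at 18 months 0 of 41, beside 0% and 0.0776% of all genes.

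Between 10 and 18 months no member was called. edgeR gave 0 of 35 in WT and 0 of 34 in KO non-tumour lung, beside 0% of all genes in each, and DESeq2 and limma gave 0. An unadjusted p under 0.05 was reached by 3 members in each genotype, and by 5.44% of all genes in WT and 5.06% in KO. In WT the 3 members were Mmp3, Adamts12 and Timp4, and in KO Mmp12, Mmp13 and Mmp16. Mmp3 stood at 22.9, 39.1 and 38.9 CPM at 10 months and 23, 21.9 and 20.1 CPM at 18 months in WT, so that the older lungs lay near WT lung 1 of the younger group. Without that lung Mmp3 was called lower at 18 months (log2 -0.85, edgeR adjusted p = 0.0233). Timp4 stood at 4.5, 2.98 and 3.85 CPM at 10 months and 1.89, 2.44 and 3.12 CPM at 18 months (-0.61 ± 0.23, adjusted p = 0.891), and these overlapped. The same lungs differed in heart muscle RNA. The mean log2(CPM + 1) of 12 heart muscle markers was 6.53, 2.81 and 5.29 at 10 months and 4.69, 4.93 and 4.76 at 18 months, with 0 called. Its part in the level of Timp4 was not tested.

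Tumours of KO mice differed from KO non-tumour lung in 8 of 33 members tested (24.2%), 4 higher and 4 lower, beside 13.8% of all genes (7.20% higher, 6.60% lower). The aggrecanases Adamts4 and Adamts5 went in opposite directions. Adamts4 (chromosome 1, 171250129 to 171262267) stood at 4.07, 4.12 and 3.98 CPM in tumours 1, 3 and 6, and at 0.573, 0.623, 1.06, 0.330 and 0.472 CPM in KO non-tumour lungs 1, 2, 3, 6 and 7. The tumours were nearly alike and above every non-tumour lung, 6.42-fold (log2 2.68 ± 0.34, edgeR adjusted p = 0.00251). Adamts5 (chromosome 16, 85858157 to 85901125) stood at 6.66, 6.84 and 8.35 CPM in the tumours and 16.3, 19.0, 20.3, 13.1 and 21.5 CPM in the non-tumour lungs. All tumours were below every non-tumour lung, 2.49-fold (-1.32 ± 0.19, adjusted p = 0.00396). In each of the 3 pairs of tumour and lung with the same code Adamts4 was higher and Adamts5 lower in the tumour.

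With the animal as a block, which uses the shared codes of animals 1, 3 and 6, edgeR called 0 of 33 members. That contrast rests on the pairs of animals 1, 3 and 6 alone, which leaves little to estimate spread. The share of all genes called by that fit is not given here. Adamts4 then had a log2 difference of 2.70 ± 0.42 (adjusted p = 0.0561) and Adamts5 of -1.17 ± 0.24 (adjusted p = 0.0763). Both kept their calls in the 16 other alternatives of 17, among them each fit with 1 library left out. Fibroblast markers, of a cell type known to make ADAMTS proteases, had a mean log2(CPM + 1) of 6.19, 5.81 and 6.70 in tumours 1, 3 and 6 and 6.53 to 6.95 in non-tumour lung, with 2 of 12 called lower (Lum, Tcf21) and none at 0 reads. Their part in the level of Adamts5 was not tested.

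Mmp12 (chromosome 9, 7344397 to 7360461) had the largest log2 difference of the 33 members. It stood at 434, 45.7 and 23.4 CPM in tumours 1, 3 and 6 and at 7.67, 11.8, 9.55, 7.87 and 6.92 CPM in the non-tumour lungs. Every tumour was above every non-tumour lung, and tumour 1 was far above the other tumours. The fold was 19.0 (log2 4.25 ± 0.79, edgeR adjusted p = 0.00995). Without tumour 1 the log2 difference was 2.01 (adjusted p = 0.00442), and with the animal as a block it was 3.08 ± 0.91 (adjusted p = 0.136). With non-tumour lungs 6 and 7 left out it was 4.11 (adjusted p = 0.0742).

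The mean levels of both macrophage marker lists were also highest in tumour 1, while single markers went both ways. The mean log2(CPM + 1) of 12 alveolar macrophage markers was 6.59, 6.06 and 5.99 in tumours 1, 3 and 6, against 5.57 to 6.37 in KO non-tumour lung, and 3 of the 12 (Mrc1, Chil3, Itgax) were called higher, with none at 0 reads. Of these 12, tumour 1 was the highest tumour for 8 and the lowest for 4 (Ear1, Siglecf, Car4 and Cidec), and Ear1, Car4 and Cidec were lower in it than in every non-tumour lung. Chil3, a chitinase-like protein of alveolar macrophages, stood at 12068, 1837 and 1758 CPM in the tumours and 503 to 1497 CPM in non-tumour lung, and Ear1, an eosinophil-associated ribonuclease, at 11.5, 18.1 and 28.2 CPM and 21.8 to 43.5 CPM. The level of 12 interstitial macrophage and monocyte markers was 6.12, 5.27 and 5.47, against 5.03 to 5.76, with 0 of 12 called. Tumour 1 was the highest tumour for 10 of these and the lowest for 2 (Lyve1 and Folr2). The part of these cells in the level of Mmp12 was not tested.

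Mmp19, a secreted MMP, stood at 115, 37.6 and 29.3 CPM in the tumours and 31.1, 24.0, 16.9, 24.2 and 17.9 CPM in the non-tumour lungs. Tumour 6 lay inside the non-tumour range and tumour 1 far above it (1.41 ± 0.40, edgeR adjusted p = 0.0483). Without tumour 1 the log2 difference was 0.59 (adjusted p = 0.159) and with the animal as a block 1.11 ± 0.32 (adjusted p = 0.132). Leaving out any 1 of the 5 non-tumour lungs ended the call as well (adjusted p = 0.0631 to 0.104). Tmem198b, which shares 789 exonic bases with Mmp19 on the other strand, was not called (-0.03 ± 0.19).

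Adamts12 stood at 3.33, 3.24 and 4.10 CPM in the tumours, above all non-tumour lungs (1.29, 1.52, 2.20, 0.948 and 0.905 CPM). The difference was 2.55-fold (1.35 ± 0.32, edgeR adjusted p = 0.0240), and 1.31 ± 0.39 with the animal as a block (adjusted p = 0.140). Leaving out tumour 3, non-tumour lung 1, non-tumour lung 2, or lungs 6 and 7 together also ended the call (adjusted p = 0.0568, 0.0563, 0.0541 and 0.0666).

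The secreted enzymes Mmp9, Mmp3 and Mmp11 were called lower beside Adamts5. Mmp9 stood at 8.07, 3.48 and 13.6 CPM in the tumours and 20.8, 16.8, 22.3, 23 and 23.8 CPM in the non-tumour lungs (-1.35 ± 0.36, edgeR adjusted p = 0.0376). Mmp3 stood at 13.4, 8.60 and 15.1 CPM against 24.5, 19.3, 16.3, 27.8 and 20.5 CPM (-0.81 ± 0.23, adjusted p = 0.0448). For each gene all tumours were below all non-tumour lungs, and so they were for Mmp11. Mmp11 stood at 35.2, 30.5 and 38.0 CPM against 48.1, 43.8, 44.6, 42.3 and 47.6 CPM (-0.39 ± 0.11, adjusted p = 0.0385). With the animal as a block the log2 difference was -1.58 ± 0.39 for Mmp9 (adjusted p = 0.101), -0.90 ± 0.15 for Mmp3 (adjusted p = 0.0586) and -0.39 ± 0.15 for Mmp11 (adjusted p = 0.210).

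These lower calls also ended when single libraries were left out. Mmp9 was not called by edgeR without tumour 1 (adjusted p = 0.105) or without any 1 of the 5 non-tumour lungs (0.0593 to 0.0747). Mmp3 was not called without tumour 1 (0.0985) or 3 (0.157), or without non-tumour lung 1, 2, 6 or 7 (0.0720 to 0.0903). Mmp11 was not called without tumour 1 (0.123) or 3 (0.180), or without non-tumour lung 1, 2, 3 or 7 (0.0694 to 0.0860). The mean log2(CPM + 1) of the neutrophil markers was 2.57, 1.76 and 2.09 in tumours 1, 3 and 6 and 2.33 to 2.72 in non-tumour lung, with 2 of 7 tested called lower (S100a9, Csf3r) and Elane at 0 reads in the tumours. Both that level and Mmp9 were lowest in tumour 3, but the level was highest in tumour 1 and Mmp9 in tumour 6. Single markers went both ways. Of 11 markers, tumour 1 was the highest tumour for 6, tumour 3 for 1 and tumour 6 for 3 (S100a9, Csf3r and Retnlg). In each tumour those 3 were below every non-tumour lung. Ltf stood at 50.7, 7.60 and 4.57 CPM in tumours 1, 3 and 6, and S100a9 at 18.3, 13.8 and 19.2 CPM. The part of neutrophils was not tested.

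edgeR called none of the TIMPs in the tumours on the libraries of this comparison, and the tumours differed among themselves. The edgeR fit over all 23 libraries called Timp1 higher (adjusted p = 0.0325) and Timp2 (0.0448) and Timp3 (0.0180) lower. Timp3 was also called lower without tumour 6 (0.00420). Timp3 stood at 472, 636 and 1081 CPM in tumours 1, 3 and 6 and 991 to 1235 CPM (median 1157) in non-tumour lung (-0.62 ± 0.26, edgeR adjusted p = 0.142), so that tumour 6 lay inside the non-tumour range and the others below it. Timp1 stood at 25.7, 5.68 and 5.99 CPM against 2.56 to 9.32 CPM (median 5.84), high in tumour 1 alone (1.12 ± 0.54, adjusted p = 0.202). Timp2 stood at 457, 572 and 660.3 CPM against 591 to 830.0 CPM (median 717; -0.34 ± 0.18, adjusted p = 0.252). Timp4 stood at 2.56, 1.08 and 1.34 CPM against 2.03 to 3.93 CPM (median 2.44; -0.76 ± 0.36, adjusted p = 0.196). The summed TIMP levels over the summed protease levels, in FPKM, ran from 0.654 to 1.33 in the tumours and from 1.28 to 1.94 in KO non-tumour lung. Timp3 shares 1733 exonic bases with Syn3 on the other strand, which was called higher in the tumours (1.16 ± 0.19).

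Mmp14 stood at 117, 66.8 and 76.4 CPM in the tumours and 46.3 to 70.4 CPM (median 51.8) in non-tumour lung (0.64 ± 0.20, edgeR adjusted p = 0.0675). Mmp2 stood at 113, 51.6 and 114 CPM against 73.3 to 138 CPM (median 74.0; -0.02 ± 0.30, adjusted p = 0.977). edgeR called neither gene on the libraries of this comparison. Mmp14 was called higher by DESeq2 (adjusted p = 0.0263), by the edgeR fit over all 23 libraries (0.00252), without tumour 6 (0.0459) and without non-tumour lung 6 (0.0480). The next genes, neighbours of Mmp12 and Mmp3 on chromosome 9, were picked after their values were seen. Mmp13 (collagenase 3) stood at 7.94, 1.36 and 2.44 CPM in tumours 1, 3 and 6 and 1.21 to 1.73 CPM (median 1.51) in non-tumour lung (1.38 ± 0.48, edgeR adjusted p = 0.0896), and was called higher by DESeq2 and in the edgeR fit over all 23 libraries. Mmp10 (stromelysin 2) had 20, 0 and 1 reads in tumours 1, 3 and 6, and 1 read each in non-tumour lungs 1 and 3. Tumour 1 was thus the highest of the tumours for Mmp12, Mmp13 and Mmp10, whereas Mmp3 was highest in tumour 6 and Mmp8 (neutrophil collagenase; 2.76, 6.80 and 2.26 FPKM) in tumour 3.

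**Figure D4:**
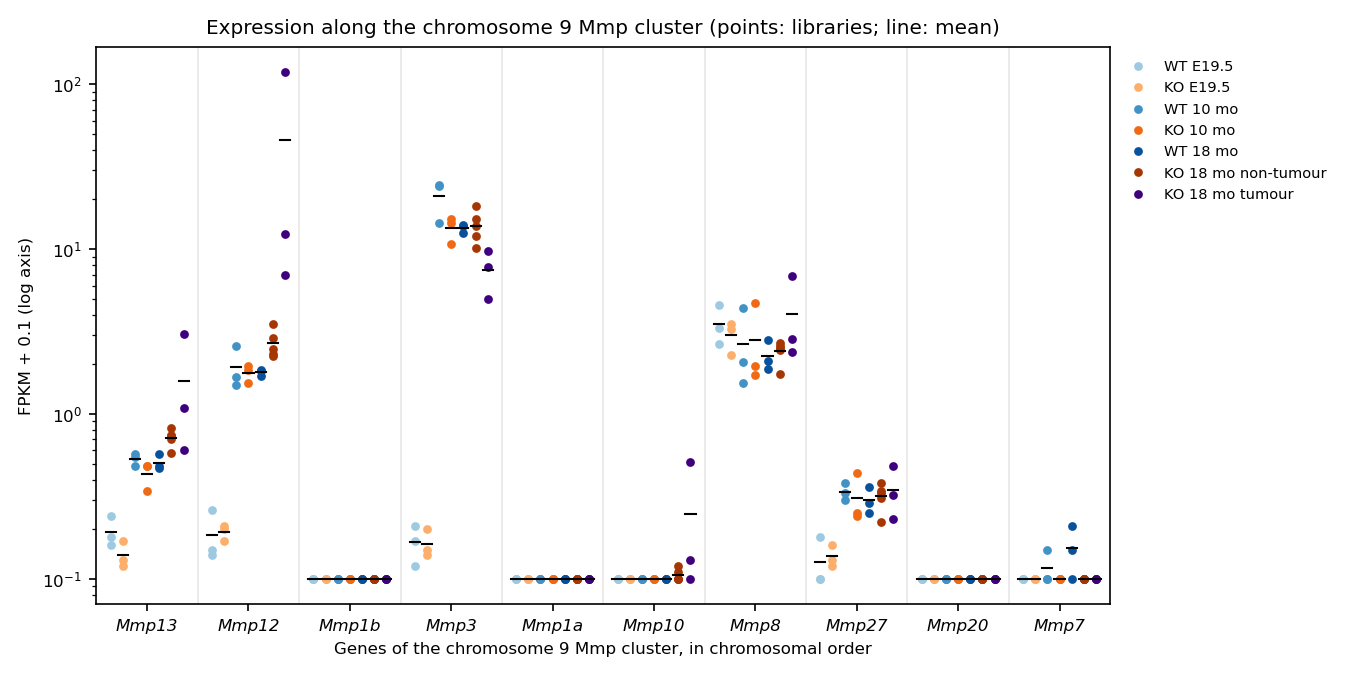
FPKM + 0.1 (log axis) of the 10 Mmp genes of the chromosome 9 cluster in chromosomal order, with points for libraries coloured by group. Mmp12 reaches 118 FPKM in tumour 1, Mmp3 lies at 0.02 to 0.11 FPKM in WT embryos and 14.4 to 24.2 FPKM in WT lung at 10 months, and Mmp1b, Mmp1a and Mmp20 have no reads.

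Against WT lung at 18 months 7 of 34 members were called in the tumours (20.6%), 4 higher and 3 lower, beside 15.4% of all genes (7.87% higher, 7.50% lower). The 3 tumour libraries are those of the comparison above, so the comparisons share them, and here genotype and tumour cannot be told apart. Mmp12, Adamts4, Adamts12, Adamts5 and Mmp11 were called in both. Adamts4 stood at 1.61, 1.02 and 1.38 CPM in WT, 3.01-fold below the tumours (1.59 ± 0.24, edgeR adjusted p = 0.0135), and Adamts5 at 19.8, 27.2 and 23.9 CPM, 3.27-fold above them (-1.71 ± 0.17, adjusted p = 0.00765). For both genes the groups did not overlap. Mmp12 stood at 5.98, 5.46 and 5.98 CPM in WT (4.84 ± 1.19, adjusted p = 0.0415), Adamts12 at 2.06, 1.56 and 1.98 CPM (0.92 ± 0.22, adjusted p = 0.0404) and Mmp11 at 44.8, 47.9 and 53.1 CPM (-0.50 ± 0.12, adjusted p = 0.0386).

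Adamts17 and Adamts7 passed edgeR's threshold against WT lung, and not against KO non-tumour lung. Adamts17 did pass against KO non-tumour lung by DESeq2 (adjusted p = 0.0202) and in the edgeR fit over all 23 libraries (0.0255). Adamts17 stood at 0.975, 1.72 and 1.77 CPM in the tumours and 7.80, 6.15 and 6.02 CPM in WT (4.5-fold lower, -2.17 ± 0.29, edgeR adjusted p = 0.0107), with 1.86 to 5.43 CPM in KO non-tumour lung between them. Adamts7 stood at 7.90, 3.76 and 5.71 CPM in the tumours and 2.69, 1.96 and 2.55 CPM in WT (2.39-fold higher, 1.26 ± 0.31, adjusted p = 0.0427), and its range in KO non-tumour lung (2.97 to 5.70 CPM) overlapped that of the tumours. Whether these differences differed between the 2 comparisons was not tested. No member was called without WT lung 2 or without WT lung 3. The adjusted p was then 0.0530 and 0.0665 for Adamts5, 0.0646 and 0.0736 for Adamts17, 0.0723 and 0.0799 for Adamts4, and 0.149 and 0.154 for Mmp12. Without WT lung 1 the calls were Adamts17, Adamts4 and Adamts5, and the adjusted p was 0.147 for Mmp12, 0.122 for Adamts7, 0.113 for Adamts12 and 0.0909 for Mmp11. Without tumour 1 Adamts7 (0.0739), Adamts12 (0.0575) and Mmp11 (0.0677) were not called, and without tumour 3 Adamts12 (0.0591) and Mmp11 (0.0717) were not. Without tumour 6 there were 18 calls, and the share of all genes called in that fit is not given here.

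**Figure D5:**
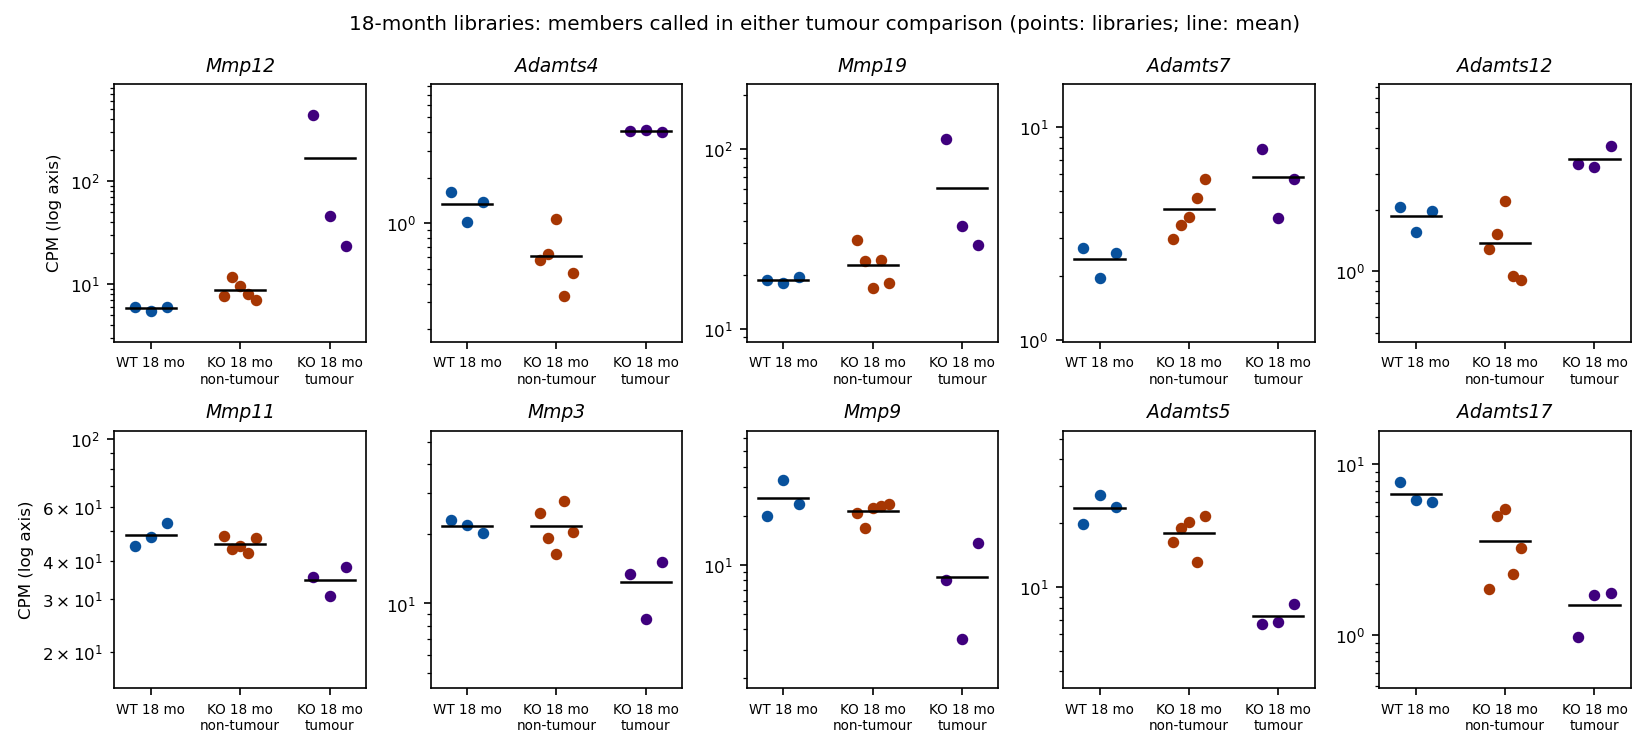
CPM (log axis) of the 10 members called in either tumour comparison, in WT lung, KO non-tumour lung and KO tumours at 18 months; points are libraries. For Adamts4 the 3 tumours lie together at 3.98 to 4.12 CPM above all lungs, for Adamts5 all tumours lie below all lungs, and for Mmp12 the tumours spread from 23.4 to 434 CPM.

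Of the 48 listed regulators, relatives and substrates, 42 were tested in tumours against KO non-tumour lung, and 8 were called higher and 0 lower (median 0.17), beside 7.20% and 6.60% of all genes. Adam19, a membrane-bound sheddase, rose by 1.57 ± 0.14 (edgeR adjusted p = 0.000963), Hapln1 by 2.79 ± 0.52 (adjusted p = 0.00995), the sheddase Adam12 by 1.14 ± 0.23 (adjusted p = 0.0136) and the protease inhibitor Serpine2 by 0.74 ± 0.15 (adjusted p = 0.0138). Against WT, where 7.87% of all genes were called higher and 7.50% lower, 5 of 41 were called higher and 1 lower, the collagen-binding proteoglycan Dcn (-0.68 ± 0.11, adjusted p = 0.0141). Adam19 (1.66 ± 0.15), the hyaluronan receptor Cd44 (1.08 ± 0.19) and Furin (0.49 ± 0.10), which activates proenzymes of MMP14 and of ADAMTS proteases, were among those called higher.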

How the data were processed

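RNA of 23 mouse lung samples was sequenced. Per the submitters' processing notes, Trimmomatic 0.36, STAR 2.5.2b, RSEM 1.3.0 and build mm10 were used. The authors deposited RSEM expected counts and FPKM values per gene and sample. Whether counting used strand is not given in the sources used here.

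Expected counts were rounded and tested in edgeR 4.0.16 (R 4.3.3): TMM factors, filterByExpr, robust quasi-likelihood F test, prior count 0.125, only the libraries of the groups compared, Benjamini-Hochberg adjustment over all genes tested and a call at an adjusted p under 0.05. Interactions were fitted on their 4 groups. The standard error is the log2 fold change over the square root of F. DESeq2 1.42.0, limma 3.58.1 on log2(FPKM + 1) and log2(FPKM + 0.1), RLE factors, no filter, a fit over all 23 libraries, a replicate block and leaving out each library were alternatives. FPKM, as deposited, was used between genes. CPM per library come from 1 TMM scaling over all 23 libraries, where the plan was a scaling within each comparison. Scripts were tested on simulated data.

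Tumours and KO non-tumour lungs 1, 3 and 6 were paired by the code numbers in the labels, read as animals; the title of lung 6 has another number. The deviations of same-coded libraries from their group means had correlations of 0.453, 0.0149 and 0.0623. No libraries were copies of each other: chi-square per degree of freedom was 6.72 to 228 over 28 pairs. Depth was 23661181 to 46566642 counts per library.

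Values per library are given for Timp1 to Timp4, Mmp2, Mmp14, members called in a genotype or tumour comparison, and the called members with the largest changes from E19.5 to 10 months (up to 5 each way, mean of at least 1 FPKM in the higher group), 22 in all. The members and the gene lists were chosen with earlier results of these data known. Coordinates are RefSeq's for GRCm38.p6, matched by accession for 45 members and by symbol for 1, and exon overlaps are from GENCODE M21 on the same build. Not every gene that overlaps a member is reported here. Proteins and genes without a promoter entry were not analysed here. Python 3.11.15, pandas 2.3.3 and matplotlib 3.10.9 were used for summaries and plots.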

Additional observations from a re-analysis of the deposited data

How the results depend on the processing

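No call of a named member changed sign under any alternative run: 657 of these gene results kept their call and 109 lost it. From E19.5 to 10 months only Adamts15 and Mmp19 in KO lost a call, each in 1 of 14 alternatives. All other losses fell in the genotype and tumour comparisons, so the pooled numbers do not describe the stability of those calls. There Adamts9 lost its call in 11 of 14 alternatives and Mmp19, in tumours against KO non-tumour lung, in 11 of 17. At 10 months KO against WT (2 members called), DESeq2 called 5, the 3 limma settings 0, 0 and 0, a fit over all 23 libraries 0 and the replicate block 0, and leaving out 1 library gave 0 to 1. At 18 months (0 called) DESeq2 called 1, and leaving out 1 library gave 0 to 0. For tumours against KO non-tumour lung (8 called), DESeq2 called 12, limma without a filter called 5, the fit over all 23 libraries 17, the animal as a replicate block 0, leaving out lungs 6 and 7 together (chosen after seeing the data) 2, and leaving out 1 library 3 to 16. For tumours against WT lung (7 called), DESeq2 called 14, the 3 limma settings 3, 3 and 3, the fit over all 23 libraries 18 and leaving out 1 library 0 to 18. The replicate block there also called 7, all lower, of which Adamts17 and Adamts5 are in the unblocked list. In that comparison, and in those of genotype and age, samples share only a number, so the block pairs nothing by design. From 10 to 18 months in WT (0 called), leaving out 1 library gave 0 to 1. From E19.5 to 10 months (28 and 28 called), it gave 28 to 30 in WT and 27 to 30 in KO. The share of all genes called under each alternative is not given here. These counts therefore do not show whether the members changed or the setting called more or fewer genes throughout. The causes of these changes were not tested. With 3 libraries in most groups, and low reads for Adamts4, Adamts19, Mmp12 and Mmp13 in some of them, small differences in these genes could not be resolved.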

Other observations

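Adamts10, a fibrillin-binding protease that no comparison at 18 months called, was picked after its values were seen. It stood at 96.6, 103, 88.1, 187 and 259 CPM in KO non-tumour lungs 1, 2, 3, 6 and 7, at 78.3, 86.7 and 183 CPM in tumours 1, 3 and 6, and at 97.6, 94.4 and 105 CPM in WT lung at 18 months. The values in non-tumour lungs 6 and 7, and in tumour 6, which shares its code number with lung 6, were above those of all other lungs and tumours of that age. The log2 difference between KO non-tumour and WT lung was 0.56 ± 0.33 (edgeR adjusted p = 0.721).

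Adamts16 was read in embryos only, with 8, 11 and 28 reads in WT and 10, 5 and 18 reads in KO embryos and 0 in all 17 adult libraries. With the 0 reads of each adult group set to 3 as a floor, it was at least 17.7-fold lower at 10 months in WT and at least 12.2-fold lower in KO. Mmp10, with 21 reads in the tumours and 0 in WT lung at 18 months, was at least 7.03-fold higher in the tumours by the same floor, and 20 of the 21 reads came from tumour 1.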
